A study of Mus musculus with 6 samples.

Results

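The genes described here encode kinesins. They were read in RNA recovered with a PNMA4 antibody from dense mouse testis fractions, from mice with and without PNMA4. They were chosen by name: a symbol made of Kif, a number and at most 1 letter from a to c, with at least 1 count in any library. Of 39 genes with such a name, 38 had a count and form the family described here, out of 34610 genes with a count in the table. The remaining name, Kif12, had 0 counts in all 6 libraries, which allows up to 0.0959 CPM over the combined libraries (3 counts, counting error only).

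PNMA4, whose gene appears as Moap1 in mouse gene tables, is a capsid-like protein derived from a retrotransposon. Each of 6 libraries came from a lysate of 8 pooled testes of mice aged 3 months. The lysates were spun onto a cushion of 25% and 70% sucrose and then separated on iodixanol, and PNMA4 was precipitated with an antibody from fractions 8 and 9. There were 3 libraries of wild type (C57BL/6J, per the protocol) and 3 lacking PNMA4, and comparing them asks which RNA came down with PNMA4 and not merely with the antibody. The group lacking PNMA4 held Pnma4 knockout replicates 1 and 2 and, as replicate 3, the only library of the double knockout (Pnma1 and Pnma4 both deleted), so Pnma4 is absent from the whole group and Pnma1 from 1 library. How the alleles were made is not given in the sources used here, and RNA of the lysates before precipitation was not analysed here.

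Kinesins are motor proteins that use ATP to walk along microtubules or to take them apart at their ends. Some carry vesicles, organelles and messenger RNA, some move the trains of intraflagellar transport that build cilia and the sperm tail, and others build the spindle and complete cytokinesis. In the testis they serve the meiotic divisions, the shaping of the spermatid head and the growth of the flagellum.

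Library facts that bear on these genes were few. Total counts ran from 3743015 to 6118126 in wild type and from 3138657 to 6367930 without PNMA4. Moap1 had 7, 26 and 27 counts in wild type against 0 in each library lacking PNMA4, and Pnma1 had 0 counts in the double knockout alone. In the double knockout library 57.5% of counts fell on the 18S rRNA-like gene Rn18s-rs5, against 27.3% to 36.1% in the other 5, and kinesin genes held 0.150% of counts there against 0.242% to 0.345% elsewhere. Levels below are therefore CPM of library sizes scaled by TMM (trimmed mean of M-values). On this scale 7 markers of Leydig cells summed to 417 CPM in the double knockout and to between 159 and 208 CPM in each of the other 5 libraries. The 8 markers of Sertoli cells summed to 315 CPM there, against 150 to 227 CPM. The 6 epididymis markers summed to 7.67 to 11.6 CPM in wild type against 15.0 to 29.1 CPM without PNMA4, with Lcn5 and Defb48 at 0 throughout. Most of each sum was the single gene Cst8, at 10.8, 6.78 and 9.37 CPM in wild type against 15.5, 10.4 and 18.4 CPM without PNMA4. Crisp1 was called lower in wild type (log2 fold change −3.57, edgeR adjusted p = 0.00244). The part of these cells in the kinesin values was not tested. Germ cell markers matched the tissue label: all 7 spermatocyte markers and all 7 markers of elongating spermatids passed the filter on low counts. Of 5 neuron and glia markers, Snap25 was at 0 in every library, Syp had 0 to 2 counts and Rbfox3 0 or 1. Gfap had 3 to 24 counts per library and did not pass the filter, while Map2 was the 1 marker that passed it.

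Promoters of the spindle kinesins shared a short sequence that the choice of genes did not use. RefSeq promoter windows (GRCm38.p6, 250 bases before to 50 after the start) were matched by symbol for 30 of the 38 members. No entry was used for Kif13b, Kif19a, Kif19b, Kif20a, Kif21b, Kif28, Kif5a and Kif5b. The letters TTTGAA, those of the cell cycle homology region known from genes expressed late in the cell cycle, were found on either strand in 8 of 9 spindle members. They were found in 4 of the 21 other members, and in 17.9% of all 32851 promoter windows. In 7 spindle members (Kif4, Kif11, Kif15, Kif18b, Kif20b, Kif22 and Kif23) they began within 50 bases of the annotated start, as in 2 of the 4 other members that hold them (Kif26b and Kif1a). Windows of kinesin genes were rich in G and C (median 62.3% against 52.7% of all windows), and among windows of at least 60% GC the letters occurred in 5.79%. These are matches of letters, and no binding or promoter activity was measured.

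3 other sets of letters were searched in the same windows. GTTGCC, a core part of the X-box bound by RFX factors of ciliated cells, was found on either strand in 10 of 30 members (33.3%, against 12.5% of all windows), among them 5 of 9 ciliary members. TGACGTCA, the cAMP response element that CREM binds in spermatids, was found in Kif17, Kif18a and Kif5c, against 1.79% of all windows. CCAAT, the site of NF-Y, was found on either strand in 14 of 30 (46.7%, against 37.4% of all windows). No 2 of these matches overlapped in a kinesin window.

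4 windows are shown, for Kif11 and Kif18b as spindle members that recur in the comparison below, for Kif17 because its window holds both TGACGTCA and GTTGCC, and for Kif26b, whose level differed most between the groups. They lie at chr19:37376132-37376431 (plus strand), chr11:102925075-102925374 (minus strand), chr4:138262001-138262300 (plus strand) and chr1:178528875-178529174 (plus strand) in that order, read 5′ to 3′, with the start at base 251. Capitals mark the 4 sets of letters named above, on either strand.
Kif11: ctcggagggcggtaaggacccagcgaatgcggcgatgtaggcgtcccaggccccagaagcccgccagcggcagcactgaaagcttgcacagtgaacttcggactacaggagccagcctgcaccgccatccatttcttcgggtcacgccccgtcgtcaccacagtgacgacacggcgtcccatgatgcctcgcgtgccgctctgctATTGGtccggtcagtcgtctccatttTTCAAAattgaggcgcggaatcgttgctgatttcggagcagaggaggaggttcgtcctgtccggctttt
Kif18b: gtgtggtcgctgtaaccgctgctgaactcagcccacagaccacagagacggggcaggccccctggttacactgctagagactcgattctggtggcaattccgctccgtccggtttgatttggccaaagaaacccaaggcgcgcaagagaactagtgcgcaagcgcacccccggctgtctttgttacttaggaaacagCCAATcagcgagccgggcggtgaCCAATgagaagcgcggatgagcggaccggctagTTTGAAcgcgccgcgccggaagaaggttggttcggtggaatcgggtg
Kif17: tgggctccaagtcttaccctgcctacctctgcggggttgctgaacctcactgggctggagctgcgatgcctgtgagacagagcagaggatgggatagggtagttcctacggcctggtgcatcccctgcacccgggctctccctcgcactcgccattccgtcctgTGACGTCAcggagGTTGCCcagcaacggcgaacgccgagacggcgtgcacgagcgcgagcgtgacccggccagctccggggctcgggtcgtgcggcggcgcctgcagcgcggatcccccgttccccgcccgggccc
Kif26b: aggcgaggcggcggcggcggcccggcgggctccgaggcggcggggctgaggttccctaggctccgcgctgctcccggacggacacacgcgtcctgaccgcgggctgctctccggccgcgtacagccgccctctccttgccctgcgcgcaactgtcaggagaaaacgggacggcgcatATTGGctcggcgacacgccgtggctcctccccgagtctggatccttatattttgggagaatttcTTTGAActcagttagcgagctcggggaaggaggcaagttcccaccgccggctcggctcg

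Kinesin RNA was present in all 6 immunoprecipitates, at mean levels that differed widely between genes. Of the 38 members, 8 had a mean level of at least 100 CPM over the 6 libraries, 21 lay between 10 and 100 CPM, 7 between 1 and 10 CPM and 2 below 1 CPM. The filter left 36 members, of which 29 lay above the median of all 13413 genes tested (11.2 CPM). Transcript lengths were not available, so these are levels of reads and not of molecules, and a longer messenger RNA gives more reads. The median coefficient of variation over the 6 libraries was 17.7% for the 36 members and 22.5% for all genes tested. Those genes were not matched to the members by level, so these medians do not show that kinesin genes were steadier. Among members it ran from 5.58% for Kif9 to 53.4% for Kif7.

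**Figure D1:**
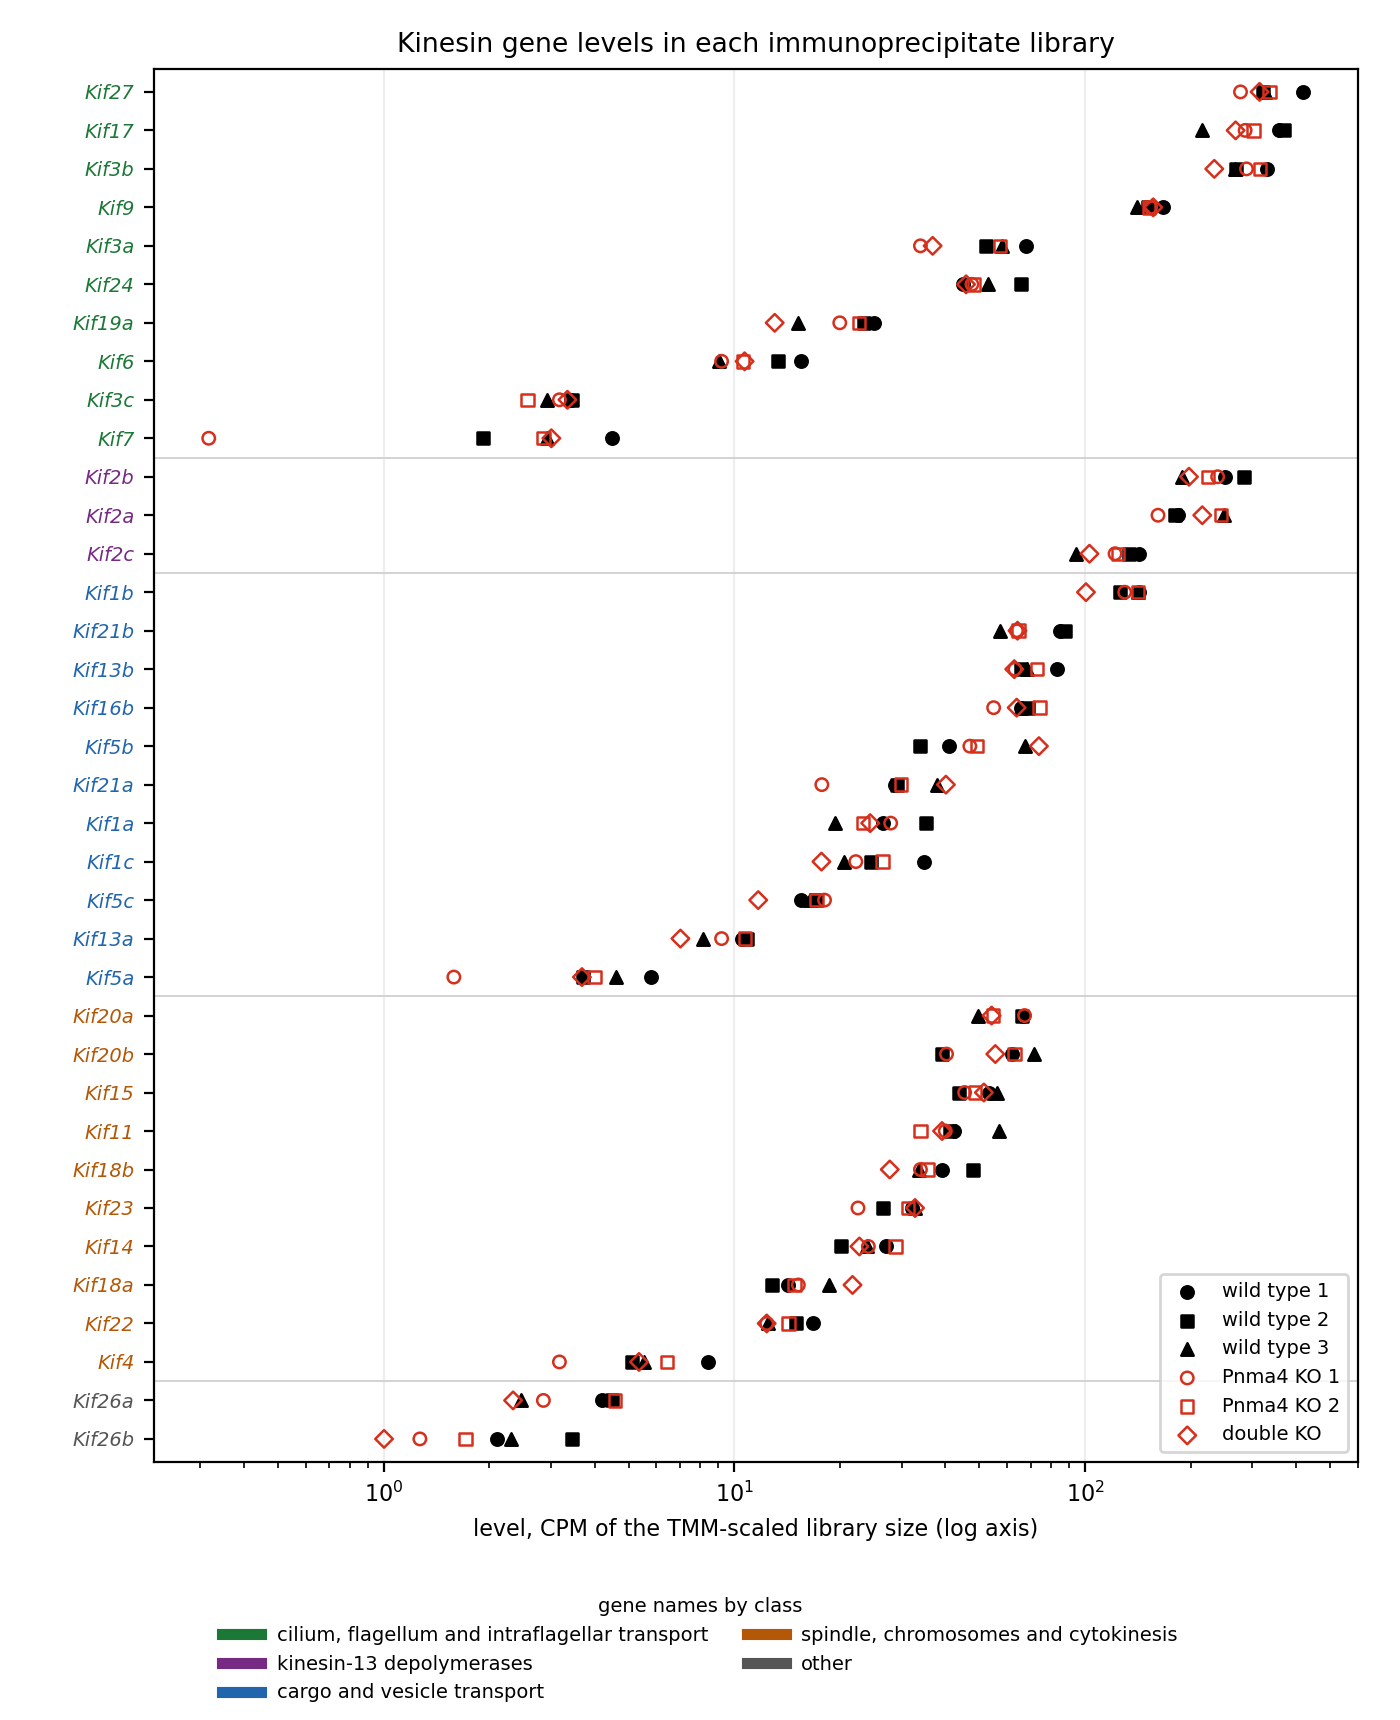
Level of each of the 36 tested kinesin genes in each library, in CPM of the TMM-scaled library size on a log axis, with filled black symbols for wild type and open red symbols for libraries lacking PNMA4. Genes are ordered by mean level within their class, from Kif27 near 333 CPM to Kif26b near 1.97 CPM, and in most rows the symbols of both groups are mixed.

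The ciliary and flagellar class held the largest share of kinesin counts. Its 11 members took 43.7% to 49.2% of kinesin counts in each library, the 3 kinesin-13 genes 19.8% to 22.2%, the 12 cargo kinesins 18.5% to 20.4% and the 10 spindle kinesins 11.8% to 14.5%. In all 6 libraries the ciliary class was the highest of these 4 and the spindle class the lowest. The 3 members with the most reads were all of the ciliary class: Kif27 at 333 ± 46.9 CPM, Kif17 at 299.8 ± 57.4 CPM and Kif3b at 284 ± 35.4 CPM (SD, n = 6). Their ranges over the libraries overlap, and the 5 members with the most reads had the same order without scaling factors, with RLE factors and with upper-quartile factors.

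The summed level of the family was 2706 ± 214 CPM in wild type against 2501 ± 169 CPM without PNMA4 (SD, n = 3 each). Single libraries held 2922, 2700 and 2494 CPM in wild type against 2407, 2696 and 2400 CPM in replicates 1 to 3 without PNMA4. The groups overlap, with wild-type replicate 3 below Pnma4 knockout replicate 2, and they overlap in each of the 5 classes as well. Members and classes were chosen with earlier results of these data known, so these sums are a description and not a test. In these immunoprecipitates of pooled testes, the number of cells of a type, RNA per cell and recovery with the antibody cannot be told apart.

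**Figure D2:**
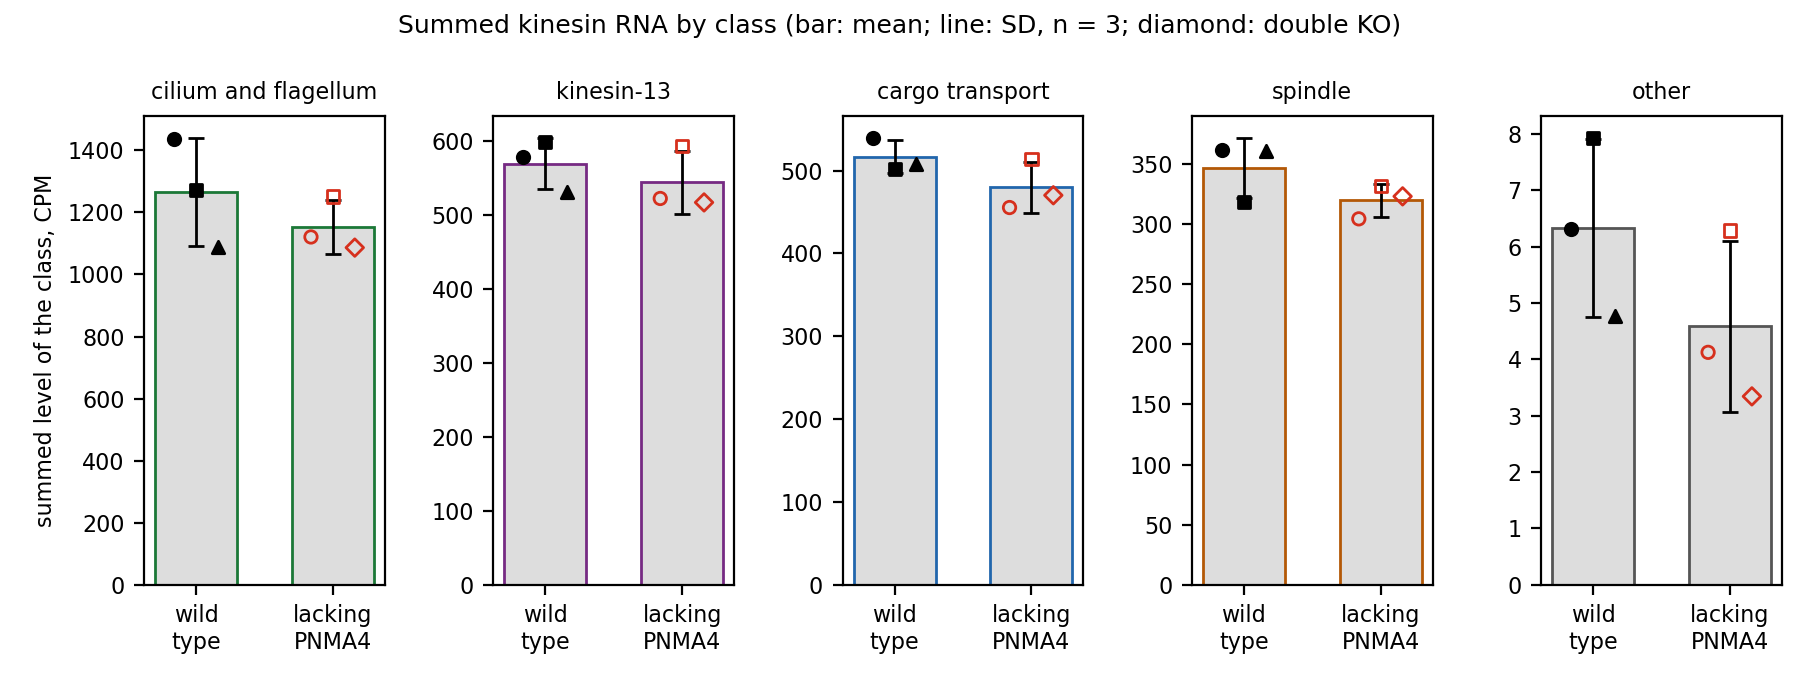
Summed level of each kinesin class in CPM, with bars for the mean of 3 libraries, lines for the SD and a point for each library, black for wild type and red for libraries lacking PNMA4. The means in wild type and without PNMA4 were 1266 and 1153 CPM for the ciliary class and 347 and 320 CPM for the spindle class, and in every class the points of the groups overlap.

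No kinesin gene passed the test between wild type and libraries lacking PNMA4. Of the 36 tested members 0 passed the quasi-likelihood test of edgeR at an adjusted p of 0.05, beside 8 of 13413 genes tested (0.0596%, with 0.0224% higher and 0.0373% lower in wild type), and every member had an adjusted p of 1.00. At an unadjusted p under 0.05 the count was also 0, where 2.92% of all genes tested lay under it. DESeq2 and limma-voom called 0 members too, with 0 and 1 members at an unadjusted p under 0.05. For 33 of the 36 members the 95% interval stayed between −1 and 1 on the log2 scale, so that a 2-fold difference lay outside it. The same held for 71.1% of all genes tested, which were not matched to the members by level. The 3 exceptions among the members were Kif26b, Kif5a and Kif7, each with a mean level under 4 CPM. For these a 2-fold difference was not excluded at this depth.

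Most members had a small positive log2 fold change, wild type over lacking PNMA4. The sign was positive for 31 of 36 members, with a median of 0.13, beside 52% of all genes tested and their median of 0.01. This is a description of the list and not a test of it, since the members share the same 6 libraries. The 5 negative members were Kif5b (−0.25), Kif18a (−0.17), Kif14 (−0.11), Kif2a (−0.02) and Kif9 (−0.01). The median was 0.05 without wild-type replicate 1, 0.21 without replicate 2 of the group lacking PNMA4 and 0.23 without wild-type replicate 3. Without scaling factors all 36 signs were positive and the median was 0.43, but the median of all genes moved to 0.31 as well.

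**Figure D3:**
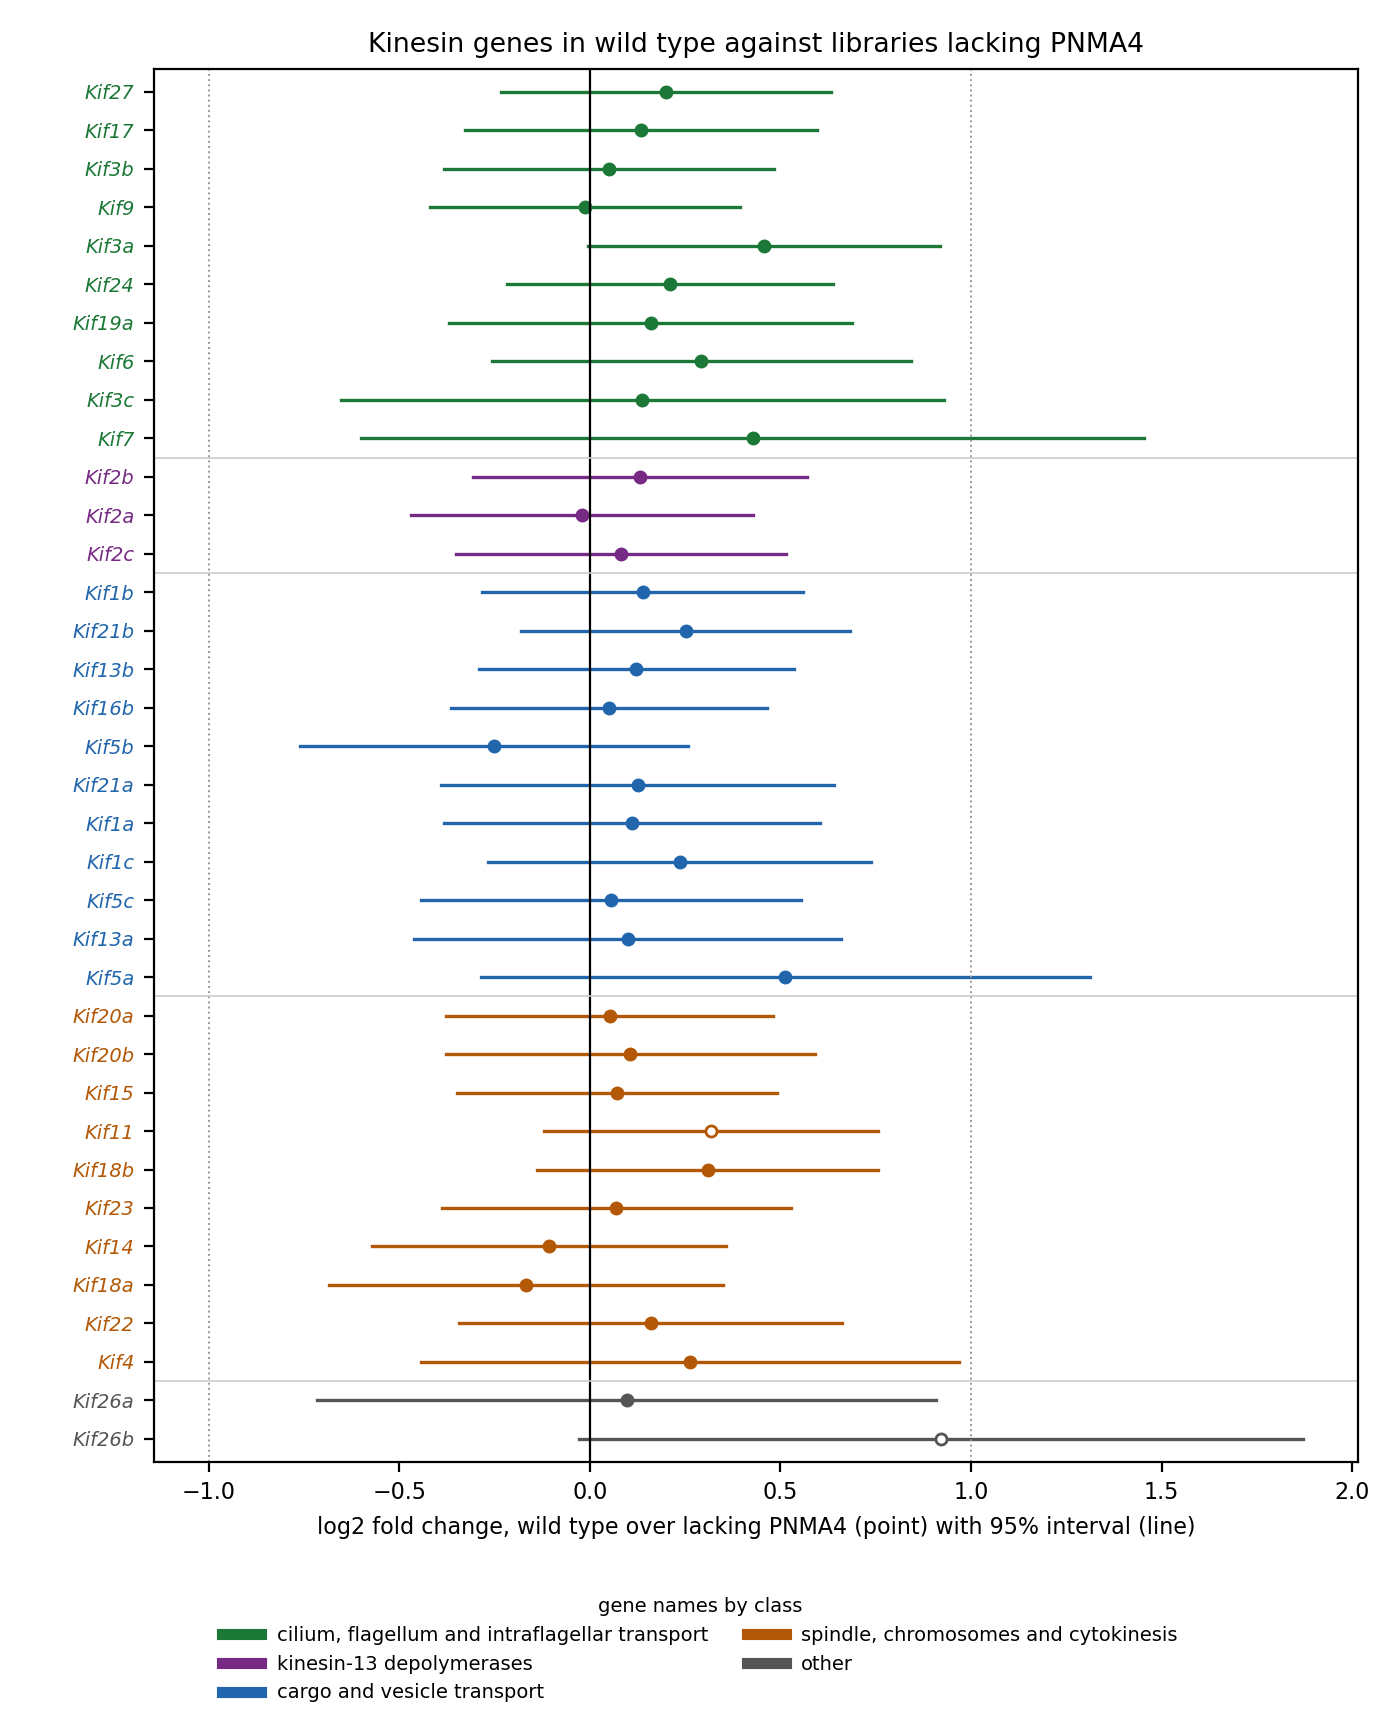
Log2 fold change of each tested kinesin gene, wild type over lacking PNMA4, as a point with its 95% interval from edgeR as a line, with open points for Kif11 and Kif26b, whose groups do not overlap, and dotted lines at −1 and 1. All 36 intervals include 0, and only those of Kif26b, Kif5a and Kif7 reach beyond 1.

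Among motors of cilia and the flagellum, Kif27 (ENSMUSG00000060176, chromosome 13, 58284727 to 58364745 in GRCm38.p6), a relative of the Hedgehog regulator Kif7 that serves motile cilia, had the most reads. It stood at 419, 322 and 326 CPM in wild-type replicates 1 to 3 and at 278, 336 and 315 CPM in replicates 1 to 3 without PNMA4. Wild-type replicate 1 was the highest and Pnma4 knockout replicate 1 the lowest, and the groups overlap (log2 fold change 0.20 with a standard error of 0.21).

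Kif17 (ENSMUSG00000028758, chromosome 4, 138262251 to 138301973) is a homodimeric kinesin-2 motor whose testis form binds ACT, the coactivator of CREM in spermatids. It stood at 357, 369 and 215 CPM in wild type against 286, 302 and 269 CPM without PNMA4. Wild-type replicate 3 was the lowest of all 6 and the other wild-type libraries the highest, so that the spread within wild type was larger than the difference between the groups (log2 fold change 0.13, standard error 0.22).

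Kif3a, Kif3b and Kifap3 form the heterotrimeric kinesin-2 that carries intraflagellar transport trains toward the tip. Kif3a (ENSMUSG00000018395, chromosome 11, 53565701 to 53604248) had the lowest unadjusted p of the family. It stood at 67.8, 52.3 and 57.9 CPM in wild type against 34.0, 57.1 and 36.8 CPM without PNMA4. Pnma4 knockout replicate 2 lay inside the wild-type range, so the groups overlap (log2 fold change 0.46, standard error 0.22, 95% interval −0.01 to 0.92, unadjusted p = 0.0527, edgeR adjusted p = 1.00). Its partner Kif3b stood at 331, 270 and 267 CPM and at 289, 315 and 234 CPM (log2 fold change 0.05), and the accessory subunit Kifap3 had a log2 fold change of −0.17.

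In the other ciliary members the groups overlapped. Kif9, a motor of the sperm flagellum, was the steadiest member, at 153 ± 13.3 CPM in wild type against 154 ± 2.12 CPM without PNMA4 (SD, n = 3 each). Kif24, which restrains cilium formation at the mother centriole, stood at 54.5 ± 10.4 and 47.2 ± 1.28 CPM. Kif6 stood at 12.6 ± 3.27 and 10.2 ± 0.830 CPM and the neuronal kinesin-2 subunit Kif3c at 3.26 ± 0.299 and 3.03 ± 0.406 CPM. Kif7, the Hedgehog regulator at the cilium tip, rested on few reads, with 17, 15 and 19 counts in wild type against 1, 20 and 9 without PNMA4. The low value is that of Pnma4 knockout replicate 1, which was also lowest on the scaled level, at 0.317 CPM against 1.92 to 4.47 CPM elsewhere. Kif19b had 2, 5 and 3 counts in wild type against 0, 6 and 0 without PNMA4, and did not pass the filter.

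The kinesin-13 genes encode motors that do not walk but peel subunits off microtubule ends. Kif2b (ENSMUSG00000046755, chromosome 11, 91575286 to 91577555) stood at 250.5, 285 and 189 CPM in wild type against 239, 224 and 198 CPM without PNMA4. Kif2a (ENSMUSG00000021693, chromosome 13, 106958996 to 107022355) stood at 185, 181 and 249 CPM and at 162, 245 and 216 CPM. The order of wild-type libraries was opposite in these relatives: replicate 3 was the lowest for Kif2b and the highest for Kif2a. Kif2c, the centromere motor also called MCAK, stood at 123 ± 25.8 and 116 ± 11.7 CPM. Log2 fold changes of the class were 0.13, −0.02 and 0.08 for Kif2b, Kif2a and Kif2c, with standard errors of 0.21, 0.22 and 0.21.

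Among cargo motors, Kif1b (chromosome 4, 149176319 to 149307773), which carries mitochondria and vesicles, had the most reads. It stood at 143, 126 and 142 CPM in wild type against 130, 142 and 101 CPM without PNMA4, with the double knockout library lowest (log2 fold change 0.14, standard error 0.20). Kif21b (chromosome 1, 136131390 to 136178001), a motor that also restrains microtubule growth, stood at 84.6, 87.6 and 57.2 CPM in wild type. Without PNMA4 it stood at 63.8, 64.6 and 64.2 CPM, all between the wild-type values (log2 fold change 0.25, standard error 0.21). Kif13b and the endosome motor Kif16b stood at 72.5 ± 9.25 and 66.8 ± 1.74 CPM in wild type against 66.3 ± 5.69 and 64.4 ± 9.70 CPM without PNMA4.

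The kinesin-1 heavy chains carry cargo together with light chains. Kif5b, the broadly expressed heavy chain, stood at 47.4 ± 17.6 CPM in wild type against 56.7 ± 14.9 CPM without PNMA4, the most negative log2 fold change of the family (−0.25, standard error 0.25). Its highest values were those of the double knockout (73.9 CPM) and wild-type replicate 3 (67.3 CPM). The neuronal heavy chains Kif5c and Kif5a stood lower in reads, at 16.4 ± 0.818 and 4.70 ± 1.04 CPM in wild type against 15.6 ± 3.45 and 3.09 ± 1.31 CPM without PNMA4. The neuronal motor Kif1a stood at 27.0 ± 7.92 and 25.2 ± 2.42 CPM. The other cargo motors Kif1c, Kif13a and Kif21a had log2 fold changes of 0.24, 0.10 and 0.13. Kif28 had 1, 0 and 1 counts in wild type against 0, 1 and 0 without PNMA4.

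Spindle and cytokinesis motors included 1 of the 2 members whose groups do not overlap, beside 6.69% of all genes tested. Both members were higher in wild type, where 3.28% of all genes were higher without overlap and 3.41% lower. Kif11 (ENSMUSG00000012443, chromosome 19, 37376382 to 37421863), also called Eg5, slides the spindle poles apart. It stood at 42.3, 41.3 and 56.7 CPM in wild type against 40.0, 34.0 and 39.1 CPM without PNMA4. The lowest wild-type library lay just above the highest library without PNMA4, and wild-type replicate 3 stood apart (log2 fold change 0.32 with a standard error of 0.21, unadjusted p = 0.146, edgeR adjusted p = 1.00).

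Kif18b (ENSMUSG00000051378, chromosome 11, 102905518 to 102925134) trims astral microtubules. It stood at 39.2, 48.1 and 33.6 CPM in wild type against 34.0, 35.6 and 27.8 CPM without PNMA4. Wild-type replicate 3 lay inside the range of the other group (log2 fold change 0.31, standard error 0.22, unadjusted p = 0.167). The cytokinesis motor Kif20a had the most reads of the class, at 66.8, 66.3 and 49.5 CPM in wild type against 67.3, 54.7 and 54.2 CPM without PNMA4. Kif20b, which serves the midbody, stood at 61.8, 39.0 and 71.4 CPM and at 40.3, 63.0 and 55.5 CPM, with the values of both groups mixed.

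The remaining spindle motors had log2 fold changes from −0.17 for Kif18a, which aligns chromosomes, to 0.26 for the chromokinesin Kif4. Kif15 stood at 51.0 ± 6.36 and 48.5 ± 3.06 CPM, Kif23 of centralspindlin at 30.5 ± 3.36 and 28.9 ± 5.53 CPM and Kif14 at 23.7 ± 3.44 and 25.2 ± 3.21 CPM, while the chromokinesin Kif22 had a log2 fold change of 0.16. Kif4 had 32, 40 and 36 counts in wild type against 10, 45 and 16 without PNMA4. The gene named Kif4-ps, whose name marks it as a pseudogene of Kif4, had more counts than Kif4 in every library, 131, 205 and 235 in wild type against 69, 232 and 83 without PNMA4. Reads may be split between such copies, so the level of Kif4 is uncertain.

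Kif26a and Kif26b are atypical kinesins that bind microtubules but lack motor activity. Kif26b (ENSMUSG00000026494, chromosome 1, 178529125 to 178932857) was read from 8, 27 and 15 counts in wild type against 4, 12 and 3 without PNMA4. Its levels were 2.10, 3.45 and 2.30 CPM in wild type against 1.27, 1.71 and 1.00 CPM without PNMA4. Each wild-type library lay above each of the others, and the difference was the largest of the family (log2 fold change 0.92, standard error 0.46, 95% interval −0.03 to 1.87, unadjusted p = 0.0570, edgeR adjusted p = 1.00). Kif26a stood at 4.21, 4.48 and 2.46 CPM in wild type against 2.86, 4.57 and 2.34 CPM without PNMA4, where the groups overlap (log2 fold change 0.10).

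Libraries of the same group differed from each other in many members. Over the 36 tested members, wild-type replicate 1 lay above the gene's own mean in 30, and Pnma4 knockout replicate 1 and the double knockout library lay below it in 26 each. Wild-type replicate 1 was the highest library for 14 members (38.9%, against 18.3% of all genes tested) and the double knockout library the lowest for 11 (30.6%, against 21.4%). Within wild type, replicate 3 was the lowest library for 16 members, among them Kif17, Kif2b, Kif2c, Kif21b and Kif19a. It was the highest for 8, among them Kif2a, Kif5b, Kif20b and Kif11. Replicate 2 was the lowest for 15 and the highest for 12. Replicate 1 was the lowest for 5 and the highest for 16. Shares of all genes tested were not computed for the counts against a gene's own mean or within wild type. Markers of germ cell stages also differed between these libraries, but not all in 1 direction. Of 7 spermatocyte markers, 5 were highest in replicate 3 of wild type (Sycp1 at 149, 111 and 267 CPM in replicates 1 to 3) and 2 were lowest there (Stag3 at 388, 464 and 316 CPM), and the list summed to 634, 670.1 and 722 CPM. Of 7 round spermatid markers, 4 were lowest in replicate 3 and 0 highest, and the list summed to 260.0, 296 and 206 CPM. Of 7 elongating spermatid markers, 5 were lowest in replicate 3 and 2 highest, and the list summed to 1482, 1503 and 1207 CPM. Their part in the kinesin values was not tested.

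**Figure D4:**
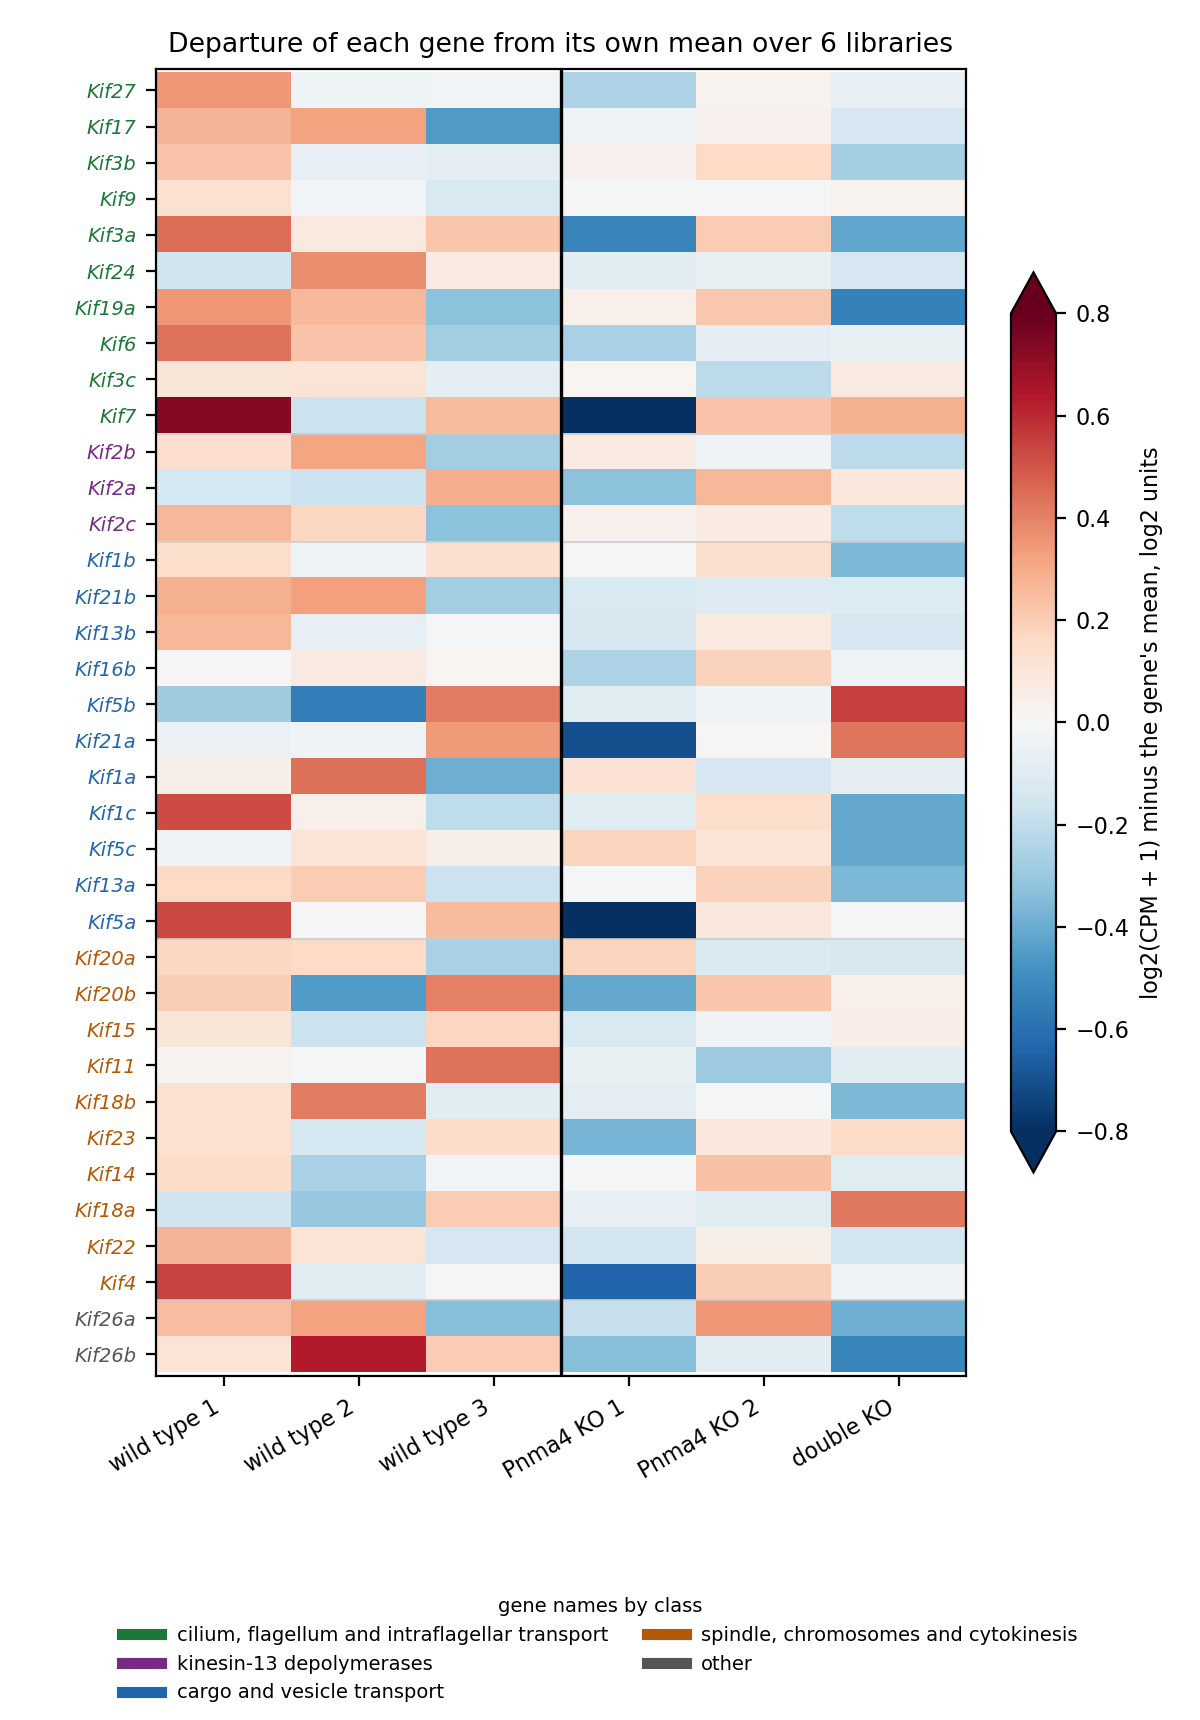
Departure of each tested kinesin gene from its own mean over the 6 libraries, in log2(CPM + 1) units, red above and blue below, with libraries in columns and a black line between the groups. Wild type 1 is above the mean in 30 of 36 genes, and the double knockout and Pnma4 knockout replicate 1 are below it in 26 each, while columns of one group often differ in sign. The shares of all genes tested were not computed for these counts.

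The double knockout library was compared with the Pnma4 knockout libraries in a fit with 3 genotypes, in which the lone library is assumed to vary like the others. No kinesin gene was called (0 of 36, beside 10 of 13413 genes or 0.0746%), and none had an unadjusted p under 0.05, beside 6.19% of all genes tested. Limma-voom also called 0. The largest differences, double knockout over Pnma4 knockouts, were −0.73 for Kif26a (standard error 0.68), 0.72 for Kif21a (standard error 0.36) and −0.72 for Kif19a (standard error 0.41), with edgeR adjusted p of 0.989, 0.813 and 0.883. Kif21a stood at 28.7, 29.0 and 37.8 CPM in wild type against 17.8, 29.9 and 40.1 CPM in replicates 1 to 3 without PNMA4, so that the 2 Pnma4 knockouts differed from each other as well, and without scaling factors its difference was −0.04. Those of Kif26a and Kif19a were then −1.48 and −1.48, so all 3 differences moved in the same direction. A scaling factor applies to every gene of a library. Kif19a, which shortens cilia from the tip, stood at 25.0, 23.4 and 15.2 CPM in wild type, 20.0 and 22.7 CPM in the Pnma4 knockouts and 13.04 CPM in the double knockout.

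Partners of kinesins were read from 5 lists. Of 77 symbols 71 were in the table and 69 passed the filter. The log2 fold change was positive for 44 of these 69, beside 52% of all genes tested, which is a description and not a test. Of the 69, 0 were called by edgeR or DESeq2, beside 0.0596% of all genes tested with edgeR. At an unadjusted edgeR p under 0.05 there was 1 partner gene, beside 2.92% of all genes tested. That gene was Mapk8ip3, a kinesin-1 adaptor also called JIP3 and named here after its value was seen, at 52.6 ± 8.84 CPM in wild type against 38.7 ± 4.27 CPM without PNMA4 (SD, n = 3 each, log2 fold change 0.44, edgeR adjusted p = 1.00). Of kinesin genes outside the naming rule, 5 of 6 were positive with a median of 0.17, among them Cenpe at 206 and 180 CPM, and Stard9 at 315 and 341 CPM was the negative one. Light chains and adaptors had 9 positive and 9 negative members with a median of 1e-04, with Spag9 at 166 and 164 CPM and Kifap3 at 161 and 181 CPM. The midzone and spindle partners had 11 of 15 positive (median 0.09), with Numa1 at 108 and 92.9 CPM and Kntc1 at 69.2 and 65.3 CPM. Genes of the intraflagellar transport trains had 16 of 23 positive (median 0.05), with Ift140 at 613 and 577 CPM and Ift172 at 525 and 467 CPM. Hedgehog partners of Kif7 had 3 of 7 positive (median −0.08), with Stk36 at 199 and 184 CPM and Sufu at 61.9 and 55.7 CPM.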

How the data were processed

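RNA recovered with a PNMA4 antibody was sequenced from 6 mouse testis preparations, 3 wild type and 3 lacking PNMA4, called biological replicates in the series' design. The authors deposited raw counts per gene in 1 table. The tools named per the submitters' processing notes are STAR 2.5.2b, featureCounts, bcl2fastq 2.20 and DESeq2, with build GRCm38. Not given in the sources used here are the annotation release, the strand setting and the treatment of reads with several matches. Of the members, 8 overlap another protein-coding gene (Kif18a, Kif19a, Kif20a, Kif21a, Kif28, Kif2a, Kif5a and Kif7), so their reads may be shared with it.

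The counts were tested with edgeR 4.0.16 in R 4.3.3 (filterByExpr keeping a count of 10 at least and a total of 15 at least, TMM factors, quasi-likelihood test, Benjamini-Hochberg adjustment over all 13413 genes tested, threshold 0.05). The fit was tested on simulated data. CPM use the TMM-scaled library size of the tested genes, log2 fold changes put wild type over the group lacking PNMA4, and their standard errors come from the test statistic. DESeq2 1.42.0 and limma 3.58.1 served as alternatives. Total counts of 3138657 to 6367930 per library set the precision, and intervals on counts cover counting error only.

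The members, classes, partner lists and markers were chosen with earlier results of these data known, and the promoter letters after the files were seen. Genes were named by a rule: the members with the most reads in each class, the 4 lowest unadjusted p, members whose groups do not overlap, and the 3 largest differences of the double knockout. The rule called for levels per coding length; no such lengths were used here, so mean CPM took their place. Other members are given by class. Coordinates and promoters are from RefSeq (GRCm38.p6), matched by symbol for 37 members in the gene table.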

Additional observations from a re-analysis of the deposited data

How the results depend on the processing

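The count of kinesin genes called was 0 under all 14 alternatives to the edgeR fit of wild type against lacking PNMA4, and under all 4 alternatives for the double knockout library, and the count of partner genes called was also 0 under the same 14. The smallest adjusted p of a member in the fits of wild type against lacking PNMA4 was 0.411 (edgeR, Kif5b, without wild-type replicate 3). Kif5b was positive under only 1 of the 15 settings, and its lowest log2 fold change over them was −0.59. Without wild-type replicate 3, 4 members had an unadjusted edgeR p under 0.05, and the share of all genes tested was not computed for that fit. Over all genes, 8 calls became 31 with no filter on low counts and 2 with a minimum count of 50, and leaving out 1 library gave 8 to 18, the 18 without the double knockout library. The median log2 fold change of kinesin genes was 0.43 with no scaling factors, and leaving out 1 library gave 0.0546 to 0.2325. The number of positive members ran from 27 without Pnma4 knockout replicate 1 to 32 with scaling factors (36 with none), and was 25 of 30 tested with the minimum count of 50; 13 members were positive under all 15 settings, 4 more (Kif4, Kif5a, Kif7 and Kif26b) under the 14 that tested them, and 19 under some only. With no scaling factors the differences of Kif21a, Kif26a and Kif19a between the double knockout and the Pnma4 knockouts were −0.0409, −1.48 and −1.48. They moved in the same direction from 0.7241, −0.7251 and −0.7181. The TMM factor was 0.6283 for the double knockout library against 1.011 and 1.108 for Pnma4 knockout replicates 1 and 2. Such a factor applies to every gene of a library, and the shift of all genes tested was not computed for this contrast. With unscaled CPM, added after seeing the data, 4 members did not overlap (Kif11, Kif15, Kif26b and Kif5a) in place of 2, beside 7.89% of all genes in place of 6.69%. The causes were not tested.

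With the replicate number as a replicate block, 0 kinesin genes were called, 31 were positive, the median was 0.13 and 7 genes were called in all. Deviations of same-numbered libraries correlated at 0.04, −0.06 and 0.08, and not every library correlated best with its own number. With deviations taken from means of so few libraries, these small correlations cannot show whether libraries were paired. The labels give only a replicate number. The alternative that orders levels with and without length was not run, since no transcript lengths were used here. Members with few reads, such as Kif7, Kif26b and Kif5a, have the widest intervals.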

Other observations

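The subunits of heterotrimeric kinesin-2 can be set against each other within a library, which leaves out scaling between libraries. Kif3a had 20.5, 19.4 and 21.7 counts per 100 counts of Kif3b in wild-type replicates 1 to 3 and 11.8, 18.1 and 15.7 in replicates 1 to 3 lacking PNMA4. All wild-type libraries lay above all others (two-sided exact permutation p = 0.1, the smallest that 3 against 3 libraries can give, and 0.2 after Benjamini-Hochberg adjustment over 4 ratios). Per 100 counts of Kifap3 the ratio of Kif3a was 37.1 ± 6.23 in wild type and 23.5 ± 6.42 in the other group (n = 3 each, SD, exact permutation p = 0.1, adjusted 0.2). Kif3b per 100 counts of Kifap3 stood at 181 ± 31.8 and 156 ± 33.4 (exact permutation p = 0.5, adjusted 0.5). Kif4 per 100 counts of Kif4-ps stood at 19.8 ± 4.56 and 17.7 ± 2.80 (exact permutation p = 0.4, adjusted 0.5). These ratios were chosen after the values were seen, and Kif3a had the lowest unadjusted p of the family in these same libraries. The p-values above are therefore no independent support for a difference. The share of other gene pairs whose ratios separate the groups was not computed.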
